A study of Mus musculus with 10 samples.

Results

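The 72 genes described here encode the proteins of the mitochondrial ribosome. They were chosen as the protein-coding genes whose symbol starts with Mrpl or Mrps followed by a digit and that had at least 10 reads in total over the 10 libraries, out of 52550 genes in the count table, of which 20269 reached that minimum. Of the 72 members, 46 belong to the large subunit of this ribosome, 25 to the small subunit, and Mrps36, in spite of its symbol, encodes a component of a metabolic enzyme complex. RNA sequencing of ribosomal RNA-depleted total RNA was performed on mouse hematopoietic stem and progenitor cells (HSPCs) from C57BL/6 mice of 8 to 20 weeks that had been transformed by a retrovirus carrying the MLL-AF9 fusion oncogene. A further vector was induced by doxycycline (DOX). In MLL-AF9-i139 this vector expresses the microRNA miR-139, and the cells also carried the tetR-KRAB repressor. In MLL-AF9-ieGFP it expresses the fluorescent protein eGFP, and whether these cells carried the repressor is not given in the sources used here. For MLL-AF9-i139, 3 clones were each sequenced once without DOX and once with DOX at 5 µg/mL, given for 48 h in clones 1 and 2 and for 72 h in clone 3, while the labels give no culture time for the untreated libraries. For MLL-AF9-ieGFP, 1 clone was sequenced at each of 48 h and 72 h, once untreated and once with DOX, for which the labels repeat no dose. These 4 libraries are therefore time points of a single clone, and its spread does not include differences between clones. The effect of the vector and that of the clones cannot be told apart, nor can DOX time and clone within MLL-AF9-i139.

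Mitochondria translate the few mRNAs of their own genome, all of which encode subunits of the respiratory chain and ATP synthase, on a ribosome of their own. Its ribosomal RNAs (rRNAs) come from the mitochondrial genome, whereas all of its proteins are encoded in the nucleus, translated in the cytosol and imported. Many of these proteins descend from the bacterial ribosome and others were added in the evolution of mitochondria. Doxycycline is a tetracycline antibiotic that binds the small subunit of the bacterial ribosome and also blocks mitochondrial translation in mammalian cells. Both constructs received DOX, so the comparison of DOX with no DOX was made in MLL-AF9-i139, in MLL-AF9-ieGFP and, as an interaction, between them. Neither translation nor any ribosomal protein was measured.

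Library totals ranged from 35133308 to 47089725 reads, and no library had a total far from the others. Levels are given as CPM, the read count relative to the library total after correction with TMM factors. In bulk RNA, fewer cells of a type and less RNA per cell cannot be told apart. The defining genes of immature myeloid cells were present, with mean untreated levels in MLL-AF9-i139 of 143 CPM for Kit, 536 CPM for Mpo and 1470 CPM for Elane. The integrin gene Itgam had 6 reads over all libraries, but it lies almost wholly inside the annotated gene Gm49368 on the same strand, so its count cannot be read as absence of the transcript. The 4 lymphoid genes with at least 10 reads summed to between 0.96 and 1.97 CPM in all libraries, with Ms4a1 at 0 and Cd3e at 2 reads in total.

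A further 6 protein-coding genes fit the symbol rule but did not reach the minimum. Mrpl17, Mrpl2, Mrpl40, Mrpl53 and Mrps34 had 0 reads in all 10 libraries and Mrpl33 had 1. Between 99.96% and 100% of the exon bases of each lie inside the body of another annotated gene. Their zeros therefore cannot be read as absence of the transcript, since reads shared by overlapping genes may not have been assigned to either.

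Without DOX, the members were present at moderate levels. Mean levels in untreated MLL-AF9-i139 ranged from 9.44 CPM for Mrpl52 to 89.8 CPM for Mrps9, with a median of 42.4 CPM. Among the 3 untreated clones the members varied little, with a median coefficient of variation of 7.65% and a highest one of 16.9%. Divided by annotated exon length, the level was highest for Mrps28, which encodes a protein of the small subunit, at 93.4 CPM per kb. Mrpl34 followed at 55.9 CPM per kb and Mrps21 at 45.7 CPM per kb. The lowest levels per length were 2.80 CPM per kb for Mrps18a, 3.44 CPM per kb for Mrpl23 and 4.44 CPM per kb for Mrpl32. These values per length are approximate, because 95.2% of the exon bases of Mrps18a lie inside another gene. Together the members took up between 0.292% and 0.313% of the reads of the 5 untreated libraries.

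With DOX, the summed level of the mitoribosomal protein mRNAs was lower in each MLL-AF9-i139 clone and about the same in MLL-AF9-ieGFP. The sum of the 72 members was 2819, 3126 and 3005 CPM in clones 1, 2 and 3 without DOX, and 2320, 2533 and 2710 CPM with DOX. Every clone was lower with DOX, and the highest DOX library lay below the lowest untreated one. The DOX libraries thus retained 82.3%, 81.1% and 90.2% of the untreated sum. In MLL-AF9-ieGFP the sum was 3148 and 3072 CPM without DOX, and 2988 and 3146 CPM with DOX, at 48 h and 72 h. Here the DOX sum was 94.9% of the untreated one at 48 h and 102.4% at 72 h, and the groups overlapped. Both subunits took part. In clones 1, 2 and 3 the large subunit members summed to 84.2%, 82.8% and 90.0% of the untreated level and the small subunit members to 79.0%, 77.9% and 90.5%.

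**Figure D1:**
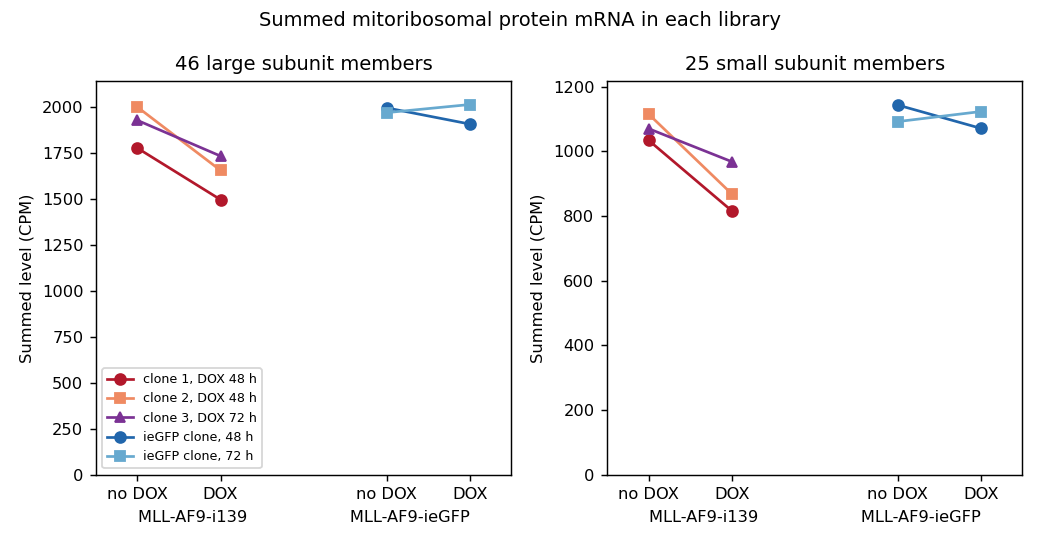
Summed level in CPM (vertical axis, from 0) of the 46 large subunit members (left) and the 25 small subunit members (right) in each of the 10 libraries, without and with DOX, with a line joining the 2 libraries of a clone or time point. All lines of the 3 MLL-AF9-i139 clones go down, least in clone 3, while in MLL-AF9-ieGFP one line goes down slightly and the other up.

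The shift was broad and small. In MLL-AF9-i139 the log2 fold change with DOX was below 0 for 60 of the 72 members, with a median of -0.26, quartiles of -0.32 and -0.07, and a range from -0.69 to 0.70. The median over all 19223 genes tested was 0.01. By subunit, the median was -0.25 over the large subunit members and -0.30 over the small subunit members. By origin as classed here, it was -0.26 over the 42 members with a bacterial counterpart and -0.25 over the 29 mitochondrion-specific ones. Mrps28 was counted among the latter, and its origin was not examined. Within single clones the median was -0.30, -0.34 and -0.15. The log2 fold change was below 0 in all 3 clones for 52 members, against 25.5% of all genes. Untreated and treated libraries did not overlap for 42 members, of which 40 were lower with DOX, against 12.4% of all genes, and 2 were higher, against 11.7%. Clone 3, the clone treated for 72 h, was the nearest to 0 for 56 members, against 55.6% of all genes.

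**Figure D2:**
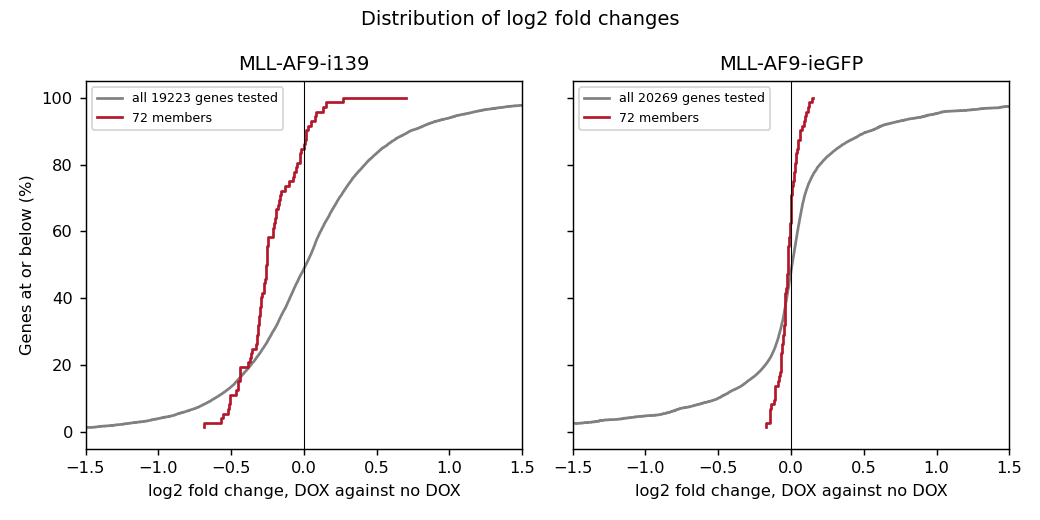
Cumulative share of genes in percent (vertical axis) at or below each log2 fold change of DOX against no DOX (horizontal axis, cropped at -1.5 and 1.5) for the 72 members and for all genes tested, in MLL-AF9-i139 (left) and MLL-AF9-ieGFP (right). In MLL-AF9-i139 the curve of the members lies to the left of that of all genes over most of its range, with medians of -0.26 and 0.01, and in MLL-AF9-ieGFP the curves cross near 0 and that of the members is the steeper one.

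Whether single members passed the test depended on how the clones were treated. In edgeR (quasi-likelihood, 6 MLL-AF9-i139 libraries, p adjusted over all genes by Benjamini-Hochberg), 0 of 72 members had an adjusted p under 0.05, the lowest being 0.093 for Mrpl44, and 0.0624% of all genes passed. At an unadjusted p under 0.05, 29 members were lower, against 9.22% of all genes, and 1 was higher, against 11.4%. Each clone was sequenced with and without DOX, and same-clone libraries deviated together from their group means. With the clone as a block, 16 members passed as lower, against 5.33% of all genes, and 1 as higher, against 7.05% of all genes. In what follows, fell and rose refer to this blocked test. Log2 fold changes over the 3 clones and their SE are those of the fit without the block, unless stated. DESeq2 without a block passed 10 members as lower and 1 as higher, where 3.07% and 5.03% of all genes passed, and 9 of these 10 were among the 16. In 1 fit of all 10 libraries, 8 members passed as lower and 1 as higher, against 2.55% and 3.54% of all genes. With the block in that fit, 38 passed as lower, among them all 16, and 1 as higher, against 10.9% and 11.4% of all genes.

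These counts rested on which clone was included. Without clone 3, 25 members passed as lower and 1 as higher in the fit without the block, where 10.1% and 11.6% of all genes passed. With the block they were 51 and 4, where 20.9% and 22.5% of all genes passed. Without clone 1, 0 members passed with the block in either direction (0.322% of all genes lower and 1.48% higher). Without clone 2, 0 passed as lower and only Mrpl44 as higher with the block (0.677% and 2.49% of all genes). The median of the members stayed below 0 in each of these fits, between -0.30 and -0.21.

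**Figure D3:**
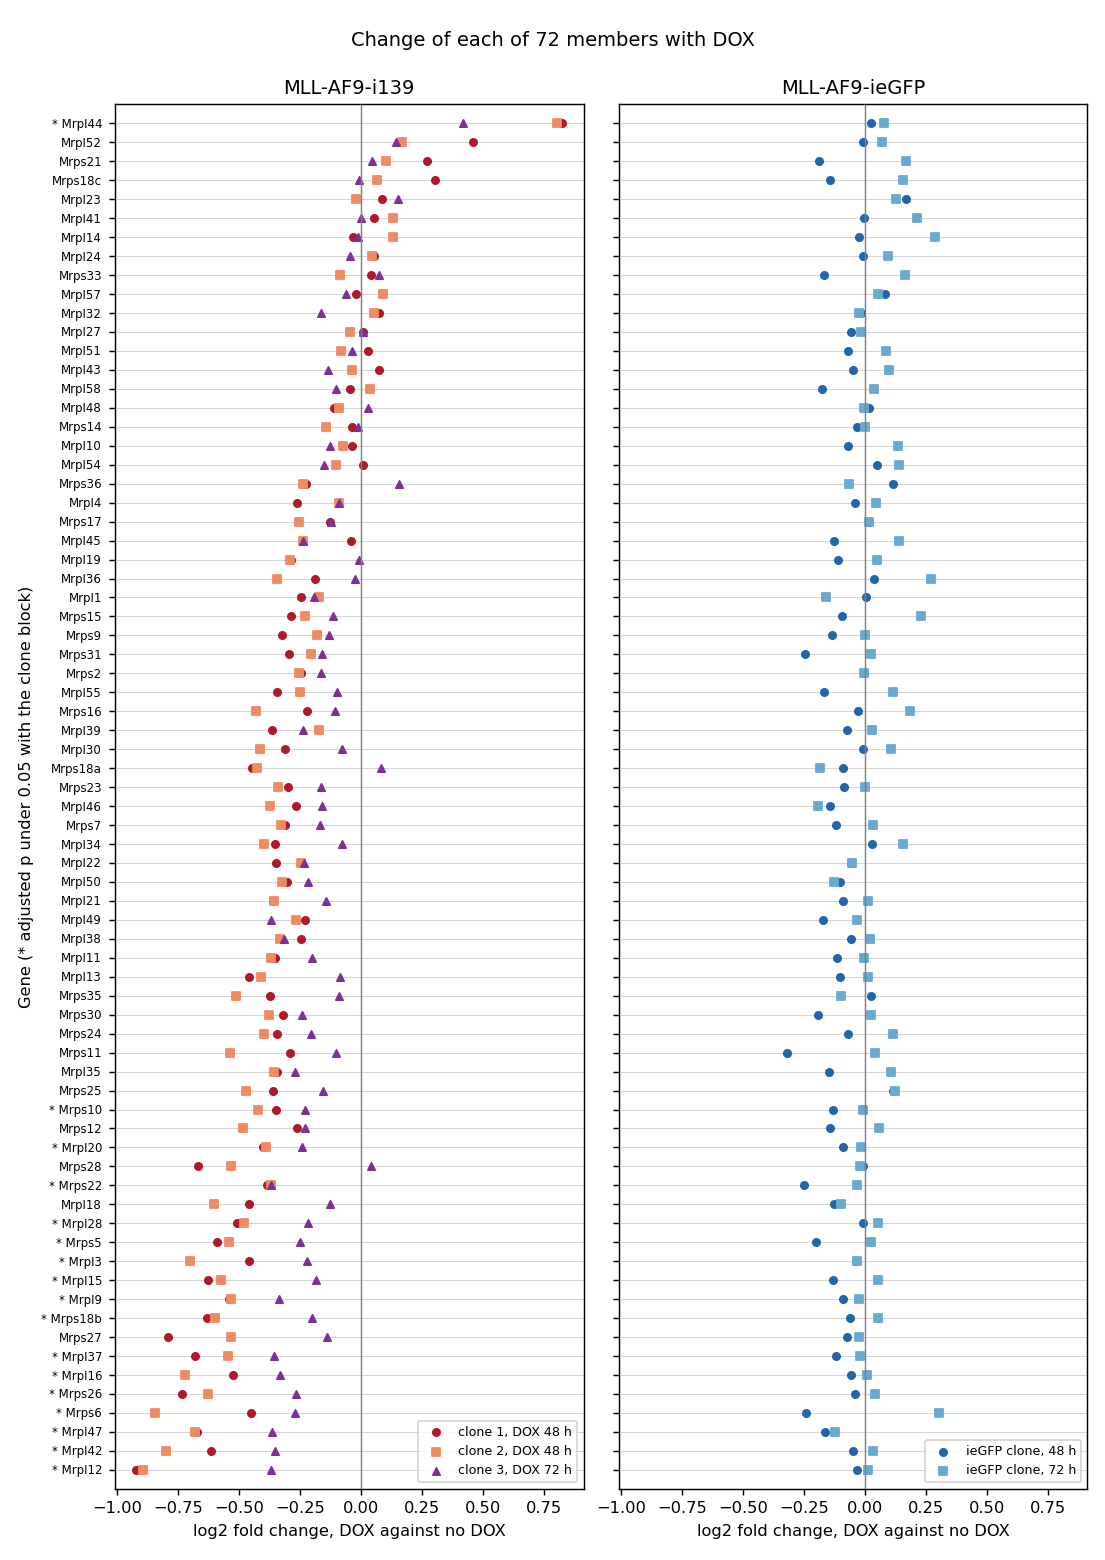
Log2 fold change of DOX against no DOX (horizontal axis) of each of the 72 members (vertical axis, ordered by the change over the 3 clones), for MLL-AF9-i139 clones 1, 2 and 3 (left) and for MLL-AF9-ieGFP at 48 h and 72 h (right), and an asterisk marks the 17 members with an adjusted p under 0.05 with the clone block. Most points of MLL-AF9-i139 lie left of 0 with clone 3 closest to it, and Mrpl44 stands alone at the top. The points of MLL-AF9-ieGFP lie on both sides of 0, with most of those at 48 h left of it.

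The largest decrease among the members was that of Mrpl12, which encodes the protein of the ribosomal stalk that contacts translation factors and which also binds the mitochondrial RNA polymerase. Mrpl12 was at 51.1, 61.5 and 59.1 CPM in untreated clones 1, 2 and 3 and at 26.9, 33.0 and 45.7 CPM with DOX. All DOX libraries were below all untreated ones, and clone 3 kept the most. The mean went from 57.2 ± 5.43 to 35.2 ± 9.58 CPM (SD, n = 3), or 61.5% of the untreated level. The log2 fold change was -0.69 (SE 0.19), with an edgeR adjusted p of 0.124 without and 0.025 with the block. Of its exon bases 13.0% lie under an exon of another gene on the opposite strand.

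A group of large subunit members followed. Mrpl42, a mitochondrion-specific protein, was at 49.5, 57.6 and 55.9 CPM without DOX and at 32.3, 33.1 and 43.7 CPM with DOX, so that the groups did not overlap. Its log2 fold change was -0.57 (SE 0.14), with an edgeR adjusted p of 0.114 without and 0.027 with the block, and none of its exon bases lie under another gene. Mrpl47, which has a bacterial counterpart that lies near the exit of the nascent peptide, was at 28.5, 31.2 and 28.5 CPM without DOX and at 17.8, 19.5 and 22.1 CPM with DOX. It fell in each clone (log2 fold change -0.56, SE 0.12, edgeR adjusted p 0.100 without and 0.027 with the block). The exons of Mrpl47 overlap those of Actl6a and Ndufb5 over 24.2% of their bases, and the log2 fold changes of these genes were -0.25 and -0.18, with adjusted p of 0.106 and 0.218 with the block. Mrpl37, also mitochondrion-specific, was at 61.9, 65.1 and 68.3 CPM without DOX and at 38.6, 44.6 and 53.3 CPM with DOX, a decrease in every clone to 69.9% of the untreated mean. Mrpl16 fell as well, with a log2 fold change of -0.51, from 43.7, 55.4 and 52.2 CPM to 30.3, 33.6 and 41.4 CPM. The other large subunit members that fell were Mrpl9, Mrpl15, Mrpl3, Mrpl28 and Mrpl20, with log2 fold changes between -0.45 and -0.33. Mrpl3 is part of the protein shell near the peptidyl transferase centre, and 81.4% of its exon bases lie inside other genes. In all, 8 of 27 large subunit members with a bacterial counterpart and 2 of 19 mitochondrion-specific ones fell, against 5.33% of all genes, and the difference between these shares was not tested.

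In the small subunit, 6 of 25 members fell, against 5.33% of all genes. Mrps26, a mitochondrion-specific protein, was at 46.97, 48.9 and 48.9 CPM without DOX and at 28.2, 31.5 and 40.6 CPM with DOX. The log2 fold change was -0.52 (SE 0.14), with an edgeR adjusted p of 0.125 without and 0.031 with the block. Mrps6, the counterpart of a bacterial protein of the subunit's platform, was at 16.01, 22.3 and 18.2 CPM without DOX and at 11.7, 12.4 and 15.01 CPM with DOX. The groups did not overlap, and its adjusted p with the block was 0.049. The exons of Mrps6 lie to 97.0% inside another gene. The other members that fell were Mrps18b, Mrps5, Mrps22 and Mrps10, with log2 fold changes of -0.46, -0.44, -0.37 and -0.32. Mrps27 had a log2 fold change of -0.47 (SE 0.14), with an adjusted p of 0.053 with the block and 0.041 with DESeq2. Mrps28, the highest per length, was at 80.1, 70.0 and 69.3 CPM without DOX and at 50.3, 48.3 and 71.2 CPM with DOX. Clone 3 was not lower, and the adjusted p was 0.114 with the block.

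**Figure D4:**
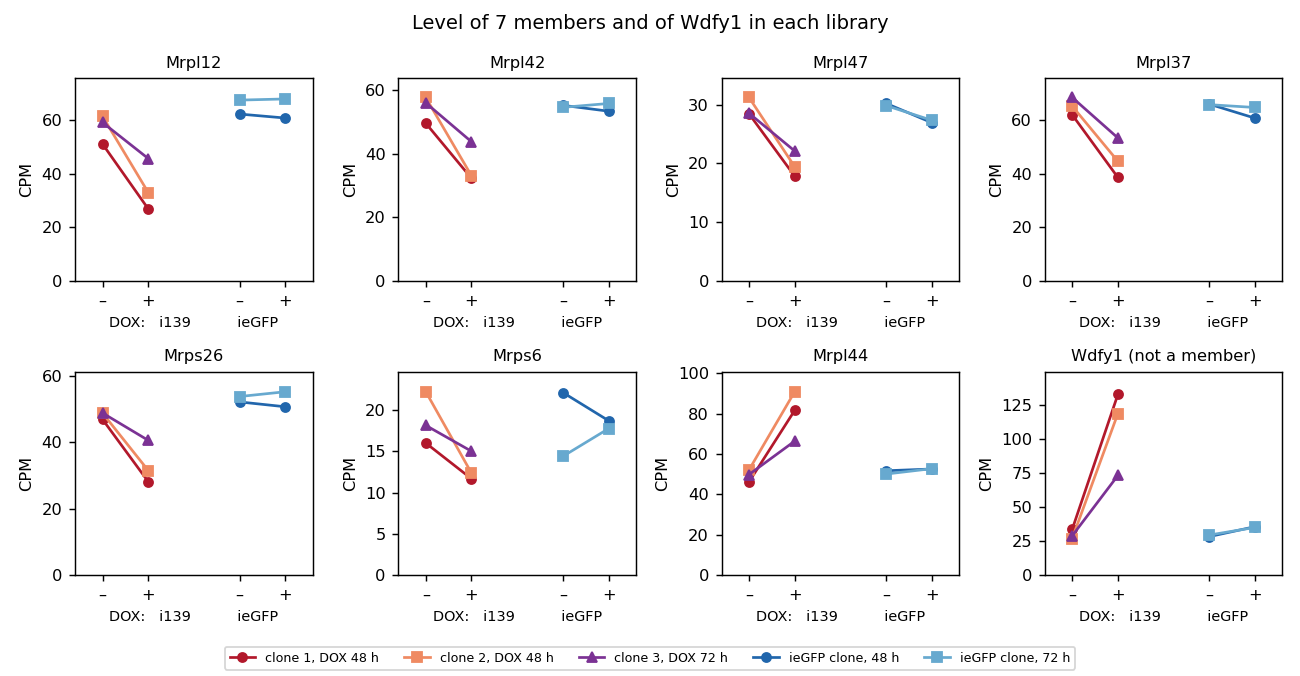
Level in CPM (vertical axes, from 0) of Mrpl12, Mrpl42, Mrpl47, Mrpl37, Mrps26, Mrps6 and Mrpl44 and of Wdfy1, a neighbour of Mrpl44, in each of the 10 libraries without (–) and with (+) DOX, with a line joining the 2 libraries of a clone or time point. The first 6 genes are lower with DOX in all 3 MLL-AF9-i139 clones, whereas Mrpl44 and Wdfy1 are higher in all 3.

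Mrpl44 was the only member that rose. It encodes a mitochondrion-specific protein of the large subunit with a fold like that of ribonuclease III. Its level was 46.1, 52.0 and 49.7 CPM in untreated clones 1, 2 and 3 and 81.5, 90.8 and 66.3 CPM with DOX. All DOX libraries were above all untreated ones, again least in clone 3. The mean went from 49.3 ± 2.99 to 79.5 ± 12.4 CPM (SD, n = 3), or 161.4% of the untreated level, with a log2 fold change of 0.70 (SE 0.13) and an edgeR adjusted p of 0.093 without and 0.023 with the block. In MLL-AF9-ieGFP Mrpl44 was at 51.6 and 49.99 CPM without DOX and 52.5 and 52.7 CPM with DOX. The gene lies at chr1:79776018-79781445 on the plus strand (GRCm38), and 7.66% of its exon bases lie under an exon of Wdfy1 on the other strand. Wdfy1, which encodes a protein of early endosomes, was at 33.4, 26.6 and 28.7 CPM without DOX and at 132.4, 118.4 and 73.0 CPM with DOX. It was thus higher with DOX in every clone and, as Mrpl44, least so in clone 3, with a log2 fold change of 1.88 (SE 0.22) and an edgeR adjusted p of 0.047 without and 0.009 with the block. In MLL-AF9-ieGFP it was at 28.1 and 29.3 CPM without DOX and at 35.4 and 34.8 CPM with DOX. Whether reads were counted by strand is not given in the sources used here, and the part of Wdfy1 reads in the count of Mrpl44 was not tested.

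Other overlapping genes also differed with DOX. Eme1, which overlaps Mrpl27, and Ighmbp2, which overlaps Mrpl21, fell. Their log2 fold changes were -0.50 and -0.36, with edgeR adjusted p of 0.040 and 0.047 with the block. Rsph9, which overlaps Mrps18a, had -0.61 with an edgeR adjusted p of 0.062 with the block. Tmem63b, which overlaps Mrpl14, went the other way, with 0.42 and 0.053. Mrpl43 shares 33.4% of its exon bases with Twnk, which encodes the mitochondrial DNA helicase. Mrpl43 was close to its untreated level (41.6 ± 3.65 to 40.6 ± 1.88 CPM, SD, n = 3), whereas Twnk fell from 43.9, 51.7 and 51.4 CPM to 22.1, 25.9 and 42.3 CPM. Mrpl18 shares 10.1% with Tcp1, a subunit of the cytosolic chaperonin, and both had negative log2 fold changes, -0.37 for Mrpl18 with an adjusted p of 0.059 with the block and -0.40 for Tcp1 with 0.036. Of the 42 members with no exon base under an exon of another gene, 9 fell and 0 rose, against 5.33% and 7.05% of all genes. Their median log2 fold change was -0.25. This list does not take gene bodies into account, and it holds Mrps18a, of whose exon bases 95.2% lie inside another gene.

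The remaining members with positive log2 fold changes did not pass the blocked test over the 3 clones. Mrpl52 was at 8.67, 9.73 and 9.91 CPM without DOX and at 11.9, 10.9 and 11.0 CPM with DOX. This is the other member whose DOX libraries were all above the untreated ones, with a log2 fold change of 0.27 (SE 0.15) and an adjusted p of 0.195 with the block. The values were 0.15 for Mrps21, 0.13 for Mrps18c, 0.08 for Mrpl23 and 0.08 for Mrpl41.

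Members with roles of their own differed among themselves. Mrps12, the protein of the decoding centre in which streptomycin resistance arises in bacteria, was at 23.3, 28.7 and 25.2 CPM without DOX and 19.4, 20.5 and 21.4 CPM with DOX (log2 fold change -0.32, adjusted p 0.077 with the block). Mrpl58, which releases peptides from stalled mitochondrial ribosomes, had a log2 fold change of -0.03 (SE 0.12). Mrps30 and Mrps18a have small subunit symbols but sit in the large subunit, and their log2 fold changes were -0.30 and -0.25, with adjusted p of 0.057 and 0.284 with the block. The Mrps18 family has 3 paralogs. Mrps18b fell from 31.2 ± 1.62 to 22.6 ± 3.802 CPM, Mrps18a went from 10.3 ± 1.42 to 8.58 ± 1.23 CPM, and Mrps18c from 19.1 ± 1.25 to 20.7 ± 1.48 CPM (SD, n = 3). The differences between the paralogs were not tested. Mrps36, the subunit of the oxoglutarate dehydrogenase complex, had a log2 fold change of -0.10 (SE 0.18).

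In MLL-AF9-ieGFP, where DOX was given without miR-139, no single member passed a test. Of 72 members, 0 passed in edgeR after adjustment and 0 had an unadjusted p under 0.05, where 0% and 1.28% of all genes passed. DESeq2 also passed 0 members, with 0.00493% of all genes. The median log2 fold change was -0.02 (48 h alone -0.07, 72 h alone 0.03), and single members ranged from -0.17 for Mrpl46 to 0.15 for Mrpl36. Without the 48 h libraries the median was 0.01. At 48 h alone the log2 fold change was below 0 for 60 of the 72 members, against 10193 of all 20269 genes. At 72 h alone it was below 0 for 26 members, against 9626 of all genes. Whether the members shifted as a set at 48 h was not tested. The log2 fold change was below 0 at both times for 22 members, against 25.1% of all genes. The DOX libraries lay below the untreated ones for 13 members, against 13% of all genes, and above them for 6, against 13.9%. Mrpl46, a mitochondrion-specific protein, was at 26.4 and 28.0 CPM without DOX and 23.8 and 24.4 CPM with DOX. Mrpl36, which encodes a small protein of the large subunit, was at 44.9 and 42.1 CPM without DOX and 45.99 and 50.8 CPM with DOX. The other 5 lowest members were Mrpl47, Mrps22, Mrps11, Mrps18a and Mrpl50, and the other 5 highest were Mrpl23, Mrpl14, Mrps25, Mrpl41 and Mrpl54, all within the same range.

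With 2 libraries a group the precision of these values was limited. The standard error of the log2 fold change was between 0.10 and 0.22 over the members. For Mrpl12, which was at 62.3 and 67.5 CPM without DOX and 60.8 and 67.9 CPM with DOX, the log2 fold change was -0.01, with a 95% interval from -0.46 to 0.44. For Mrpl42 it was -0.01, with an interval from -0.34 to 0.32. For Mrpl44 it was 0.05, with an interval from -0.26 to 0.36. The intervals of Mrpl12 and Mrpl42 thus include -0.26, the median of the members in MLL-AF9-i139. The log2 fold changes of these 3 genes themselves in MLL-AF9-i139, -0.69, -0.57 and 0.70, lie outside their intervals in MLL-AF9-ieGFP. These genes were picked as the lowest and highest members in MLL-AF9-i139, and the error of their values there is left out. The comparison is therefore no test of a difference between the constructs.

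The difference between the constructs was tested as the interaction of DOX and construct in 1 fit of all 10 libraries. Of 72 members 0 passed in edgeR after adjustment, as did 0.00493% of all genes, and the lowest adjusted p of a member was 0.527. At an unadjusted p under 0.05, 10 members were lower in MLL-AF9-i139 relative to MLL-AF9-ieGFP and 1 was higher, against 4.21% and 4.96% of all genes. The interactions of largest size were -0.69 for Mrpl12 (SE 0.26), -0.57 for Mrpl42 (SE 0.19), -0.53 for Mrps26 (SE 0.20), -0.53 for Mrps6 (SE 0.29) and 0.64 for Mrpl44 (SE 0.18). The unadjusted p was 0.0045 for Mrpl44 and 0.024 for Mrpl12. The block passed 0 members (0.187% of all genes), with a lowest adjusted p of 0.095, and DESeq2 passed 0 (0.409% of all genes). Without clone 3, 9 members passed as lower and 1 as higher, against 4.44% and 5.74% of all genes. By description, the log2 fold change was lower in each of the 3 MLL-AF9-i139 clones than at both MLL-AF9-ieGFP times for 42 members, against 20.1% of all genes.

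The lists of nuclear genes that work with this ribosome had medians below 0 in MLL-AF9-i139. Their counts too come from the blocked test over the 3 clones, in which 5.33% of all genes fell and 7.05% rose, while 0.322% and 0.677% passed as lower without clone 1 or clone 2. Among 5 further ribosomal proteins with other symbols, Ptcd3 fell (log2 fold change -0.46, adjusted p 0.041 with the block) and Aurkaip1 had 0.23. Of 14 translation factors, 3 fell and 0 rose. Tufm, the elongation factor that brings tRNAs to the ribosome, was at 72.1, 88.6 and 72.1 CPM without DOX and 45.6, 53.0 and 54.4 CPM with DOX, with no overlap and an adjusted p of 0.024 with the block. Gfm1, the translocase, and Guf1, a further elongation factor, fell as well, with log2 fold changes of -0.36 and -0.45. Of 23 genes of ribosome assembly and rRNA modification, 4 fell, with Rcc1l the lowest at -0.58, and Trub2 was highest at 0.35 without passing the test. Of 21 aminoacyl-tRNA synthetase and related genes, which charge the mitochondrial tRNAs, 4 fell. Among them were Iars2, Yars2 and Kars, the last of which also serves the cytosol, and Iars2 went from 148.4, 165.4 and 161.3 CPM to 87.2, 92.1 and 129.3 CPM.

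Of the mitochondrial chaperones and proteases, 5 of 11 fell and 0 rose, against the same 5.33% and 7.05% of all genes. Hspd1, the chaperonin of the matrix, was at 656.5, 731.9 and 682.2 CPM without DOX and at 303.7, 301.9 and 480.3 CPM with DOX (log2 fold change -0.92, SE 0.18). Its partner Hspe1 had the lowest value of the list, -0.93 (SE 0.21), and Hspa9, Lonp1 and Trap1 also fell. Of 12 regulators of mitochondrial transcription and biogenesis, 3 fell: Myc, a transcription factor of growth genes, from 316.2, 364.7 and 363.7 CPM to 215.2, 228.3 and 316.6 CPM, and Polrmt and Tfb2m, which transcribe the mitochondrial genome. The log2 fold change was -0.37 for Tfam, -0.18 for Nrf1 and -0.06 for both Gabpa and Yy1. These 4 did not pass the test.

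The RNAs that this ribosome contains or reads were also examined. Of the 13 mRNAs of the mitochondrial genome, 0 fell and 1 rose, against 5.33% and 7.05% of all genes. This was mt-Cytb, from 1425, 1423 and 1645 CPM to 2078, 1733 and 2489 CPM (log2 fold change 0.50, adjusted p 0.027 with the block). In MLL-AF9-ieGFP mt-Cytb went from 1271 and 1418 CPM to 2170 and 2118 CPM, and its DOX libraries too were above the untreated ones. The MLL-AF9-ieGFP DOX libraries lay above the untreated ones for 9 of the 13 and below them for 1, against 13.9% and 13% of all genes. After adjustment 0 of the 13 passed there in edgeR. At an unadjusted p under 0.05, 3 were higher and 0 lower, against 1.28% of all genes in either direction. The median of the 13 was 0.15 in MLL-AF9-i139 and 0.34 in MLL-AF9-ieGFP, with clones 1, 2 and 3 at 0.24, -0.47 and 0.55. The 2 mitochondrial rRNAs varied widely between libraries, and 0 passed the test. After the depletion of rRNA, mt-Rnr1 was at 8.24, 17.0 and 4.69 CPM without DOX and at 13.7, 3.20 and 7.11 CPM with DOX, and in untreated MLL-AF9-ieGFP it was at 4.45 CPM at 48 h and 32.0 CPM at 72 h.

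**Figure D5:**
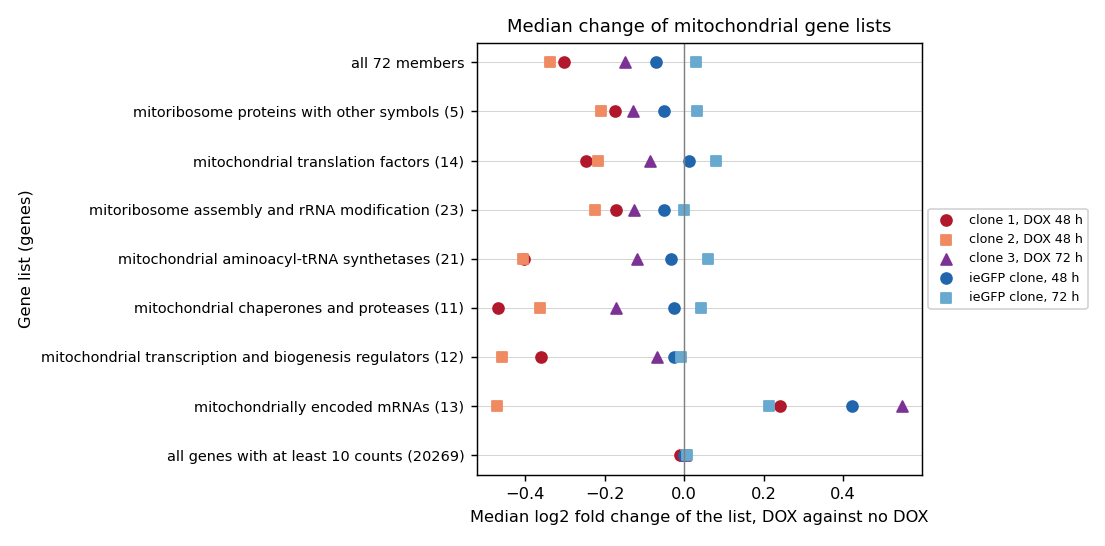
Median log2 fold change of DOX against no DOX (horizontal axis) of the members, of 7 other lists of mitochondrial genes and of all genes (vertical axis, number of genes in brackets), 1 point for each MLL-AF9-i139 clone and each MLL-AF9-ieGFP time. In the lists of nuclear genes the 3 MLL-AF9-i139 clones lie below 0, with clone 3 nearest to it, and MLL-AF9-ieGFP lies near 0, whereas the mitochondrially encoded mRNAs are above 0 at 4 of the 5 points.

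Some markers of myeloid cells differed in the same libraries. Mpo, a granule enzyme of myeloid precursors, was at 414.2, 615.0 and 579.8 CPM in untreated MLL-AF9-i139 and at 1306, 1244 and 1669 CPM with DOX (adjusted p 0.010 with the block). It was at 523.6 and 642.1 CPM without DOX and 705.2 and 927.4 CPM with DOX in MLL-AF9-ieGFP. Cxcr2, a chemokine receptor of neutrophils, was at 1.35, 0.89 and 0.91 CPM without DOX and at 41.6, 22.8 and 2.67 CPM with DOX, so that clone 3 stood far below the others. Of 7 myeloid progenitor markers 2 rose (Mpo and Fcgr3) and Hoxa9 fell, against 7.05% and 5.33% of all genes, and the median log2 fold change of the 7 was 0.03 without and -0.06 with the block. Of 10 neutrophil markers 8 were tested and 2 of these rose (Cxcr2 and Ngp), against 7.05% of all genes. The sum of the 10 was between 130.3 and 222.9 CPM without DOX and between 192.9 and 360.7 CPM with DOX in MLL-AF9-i139, so that the groups overlapped. In MLL-AF9-ieGFP it was between 295.6 and 377.6 CPM without DOX and between 283.5 and 398.8 CPM with DOX. Of 4 erythroid and megakaryocyte markers with at least 10 reads 1 rose, against 7.05% of all genes. This was Gp9, a platelet gene, from 0.10 to 0.69 CPM. The macrophage markers C1qa, C1qc and Marco had 0 reads and C1qb had 9. The other 3, Adgre1, Mrc1 and Vcam1, were present, and 0 of them passed the blocked test. In MLL-AF9-i139 they summed to between 67.9 and 91.5 CPM without DOX and between 50.1 and 112.6 CPM with DOX. The part of these marker changes in the levels of the ribosomal protein mRNAs was not tested.

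The promoters of the members were examined for motifs because most members had lower values together. RefSeq promoter sequences (250 bases before to 50 after the start, GRCm38.p6) were found for 64 of the 72 members, and 4 motifs were searched on both strands: GCGCATGCG of the factor NRF1, CCGGAAGT of ETS factors such as GABPA, AAGATGGCG of YY1, and the E-box CACGTG bound by MYC. The NRF1 motif was found in 9.38% of the member promoters and 1.95% of all 27025 promoters, the ETS motif in 17.2% and 4.31%, the YY1 motif in 12.5% and 1.64%, and the E-box in 6.25% and 8.09%. Among the 11348 promoters of expressed protein-coding genes the shares were 3.59%, 8.04%, 3.07% and 10.8%. At least 1 motif was present in 39.1% of the member promoters, in 14.6% of all promoters and in 22.9% of those of expressed protein-coding genes. It was present in 8 of the 15 promoters of members that fell. The promoters of the member that rose and of the members that fell most are given 5′ to 3′, with motif matches in capitals. They lie at chr1:79775768-79776067 (plus strand) for Mrpl44, chr11:120484387-120484686 (plus strand) for Mrpl12 and chr10:95501900-95502199 (minus strand) for Mrpl42.
Mrpl44: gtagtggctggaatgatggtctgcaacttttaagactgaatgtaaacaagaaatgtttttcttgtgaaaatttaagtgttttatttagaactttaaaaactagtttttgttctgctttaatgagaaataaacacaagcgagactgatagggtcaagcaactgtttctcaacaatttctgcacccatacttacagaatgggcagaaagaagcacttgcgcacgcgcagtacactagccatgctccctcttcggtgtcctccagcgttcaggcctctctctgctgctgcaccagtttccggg
Mrpl12: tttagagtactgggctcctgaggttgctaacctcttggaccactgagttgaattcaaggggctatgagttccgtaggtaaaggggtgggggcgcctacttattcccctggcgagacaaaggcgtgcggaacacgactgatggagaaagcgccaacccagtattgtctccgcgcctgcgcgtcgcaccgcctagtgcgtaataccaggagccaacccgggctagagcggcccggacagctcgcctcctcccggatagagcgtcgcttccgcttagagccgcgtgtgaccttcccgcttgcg
Mrpl42: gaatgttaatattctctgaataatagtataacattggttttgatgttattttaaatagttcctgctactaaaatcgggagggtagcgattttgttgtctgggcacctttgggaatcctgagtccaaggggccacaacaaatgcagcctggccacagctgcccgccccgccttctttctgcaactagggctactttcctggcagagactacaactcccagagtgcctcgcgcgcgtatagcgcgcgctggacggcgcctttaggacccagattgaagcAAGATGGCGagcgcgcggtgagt
Of these promoters only that of Mrpl42 holds any of the 4 motifs, a YY1 match just after the start. The absence of a match says only that these letters are not in the window.

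Since DOX induces miR-139 in MLL-AF9-i139, the members were searched for matches to its seed, the bases 2 to 8 with which a microRNA pairs to the 3′ UTR of a target mRNA. The mature sequences (RefSeq, GRCm38.p6) are given 5′ to 3′ with the seed in capitals. They lie at chr7:101475382-101475403 and chr7:101475418-101475439 on the plus strand.
mmu-miR-139-5p: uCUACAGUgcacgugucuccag
mmu-miR-139-3p: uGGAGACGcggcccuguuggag
A match to the miR-139-5p seed (ACTGTAG) was found in the longest annotated 3′ UTR of 7 of 72 members (9.72%), against 12.7% of 13995 expressed genes. A match to the miR-139-3p seed (CGTCTCC) was found in 0 of 72, against 3.75%. The 3′ UTRs of the members are short, with a median of 403 bases against 1092 over all these genes. Only Mrpl15 and Mrps17 had the longer match with an A opposite the first base of the microRNA, and Mrps6 had the site in the shortest 3′ UTR. The sites are given with the seed match in capitals.
Mrpl15: gaggagagACTGTAGagtcgctt
Mrps17: agactcttACTGTAGaaactttg
Mrps6: acagtaccACTGTAGcgtttcca
The other members with a match were Mrpl32, Mrpl48, Mrpl50 and Mrpl51. Of the 7, Mrpl15 and Mrps6 fell, from 71.9, 86.8 and 75.1 CPM to 46.5, 58.2 and 66.0 CPM in the case of Mrpl15. The median log2 fold change was -0.16 over the members with a match and -0.26 over those without.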

How the data were processed

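Raw read counts per gene, as deposited by the authors, were used for 10 libraries of 3 MLL-AF9-i139 clones and 1 MLL-AF9-ieGFP clone, each untreated and treated with DOX. The submitters' processing notes name the aligner STAR 2.5.3e, the read counter featureCounts 1.6.0, DESeq2 1.22.2 and the build GRCm38. The 2 deposited tables held the same counts (0 values differed), and 14 columns of other samples were not used. Gene positions, overlaps and 3′ UTRs came from GENCODE M21, a later release than that of the authors.

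Genes with at least 10 counts in the libraries of a fit were tested with edgeR 4.0.16 (quasi-likelihood, TMM factors, R 4.3.3) and Benjamini-Hochberg adjustment over all genes, at an adjusted p of 0.05. DOX in MLL-AF9-i139 was fitted on its 6 libraries without a block, and MLL-AF9-ieGFP and the interaction on 4 groups over 10 libraries. Log2 fold changes of single clones used a prior count of 2. Clone numbers name the same clone with and without DOX. Same-clone deviations from the group mean correlated (Pearson r 0.356, 0.269 and 0.393), while different clones were between -0.297 and -0.038. Deviations within a group sum to 0, so the values below 0 between different clones are in part set by this centring. In MLL-AF9-ieGFP the number is the time point. Libraries of 1 clone are not separate animals, and p-values measure the spread between these libraries. DESeq2 1.42.0, RLE factors, library totals, other minimums, the block and leaving out clones or times were alternatives. DESeq2 with the block, the block with all 10 libraries and the block with a clone left out were chosen after seeing the data. Scripts ran in Python 3.11.15 and were tested on simulated data.

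The members and lists were chosen with earlier results of these data known. Named were the 6 highest and lowest members in each DOX comparison, the 4 highest and lowest interactions, the 6 lowest adjusted p with the block, the 3 highest and lowest levels per length, members of special role, and up to 4 genes of each other list. All 17 members that passed with the block, Mrps27, Wdfy1 and other overlapping genes, and further genes of the lists that passed were named after their values were seen.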

Additional observations from a re-analysis of the deposited data

How the results depend on the processing

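The main fits were those without a block. The clone number pairs the MLL-AF9-i139 libraries, and the replicate block passed 17 members, 16 lower and 1 higher, in place of 0. For MLL-AF9-i139, DESeq2 passed 11, DESeq2 with the block 19, the fit with no minimum beyond 1 read 1 (Mrpl44), all 10 libraries 9, and all 10 with the block 39. Leaving out 1 clone gave between 0 and 26 members without the block and between 0 and 55 with it, the highest without clone 3. For the interaction, DESeq2 with the block passed 3 members, and leaving out 1 clone or time point gave between 0 and 10 without the block and between 0 and 33 with it. RLE factors, library totals, filterByExpr and a minimum of 10 reads in 3 libraries passed 0 members in the 3 comparisons, and no setting passed a member in MLL-AF9-ieGFP. The median of the members stayed between -0.30 and -0.21 in MLL-AF9-i139 and between -0.27 and -0.19 for the interaction, and lay between -0.07 and 0.01 in MLL-AF9-ieGFP. The causes of these differences were not tested.

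The sign of the following named members turned. In MLL-AF9-i139, Mrpl32 ranged from -0.051 to 0.082 with 1 clone left out, and was at -0.0034 in DESeq2 with the block, -0.0079 and -0.012 in the fit of all libraries without and with the block, and -0.055 and -0.034 with the block and without clone 1 or 2. Mrpl58 ranged from -0.067 to 0.013 there (0.012 with the block without clone 3). In MLL-AF9-ieGFP, leaving out 1 clone or time gave from -0.020 to 0.27 for Mrpl14, -0.0021 to 0.20 for Mrpl41, -0.17 to 0.022 for Mrpl58, -0.32 to 0.026 for Mrps11, -0.14 to 0.040 for Mrps12, -0.057 to 0.036 for Mrps18b, -0.14 to 0.14 for Mrps18c, -0.19 to 0.010 for Mrps30 and -0.084 to 0.12 for Mrps36. The turned values were the same with the block. Mrps18c was also at 0.0032 with the block and at 0.0027 with the block and without clone 2. Its interaction ranged from -0.0055 to 0.26 with 1 clone or time left out and was -0.0058 without 48 h and with the block. With 2 or 3 libraries a group the smallest decrease that passed with the block in MLL-AF9-i139 was -0.32 on the log2 scale, as estimated without the block.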
